A study of Mus musculus with 4 samples.

Results

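Cxcl12, Cxcr4 and Ackr3 encode a chemokine and its receptors, and CTCF binding at these 3 genes was examined in the embryonic mouse forebrain by ChIP-seq, the sequencing of DNA recovered by chromatin immunoprecipitation. The genes were taken by name, with earlier results of these data known. They are among the 21887 protein-coding genes on chromosomes 1 to 19, X and Y of the RefSeq table for GRCm38.p6. The coordinates of that table are those of mm10. A peak was assigned to a gene when it lay in it or within 300 kb of it. This gave 19 of the 25625 peaks of the medial ganglionic eminence (MGE) list and 21 of the 31886 peaks of the telencephalon list on those chromosomes.

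The series has 4 samples from mouse embryos of embryonic day 13.5: CTCF and input libraries of the telencephalon, and the same pair from the MGE, the ventral region in which many cortical interneurons are born. The telencephalon CTCF group and the MGE CTCF group were used here. Genotype, strain and the number of embryos pooled are not stated in the labels, and no treatment other than dissociation is given. Whether the MGE was part of the telencephalon sample is not stated, and the track name of its list carries e14 in place of the labelled day. Tissue cannot be told apart from the library kit, which differed between the tissues. A list of peaks also cannot be checked for the cell types it came from. With 1 CTCF library per tissue there is no replicate, no p-value was computed, and read depth is unknown. A peak absent from a list may lie below that list's calling limit.

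CTCF is a zinc finger protein that binds DNA in a directional manner and, with cohesin, marks many loop anchors and domain borders. Cxcl12 is a secreted chemokine that the meninges and intermediate zone supply to the developing cortex. Cxcr4 is the G protein-coupled receptor through which migrating interneurons read it, and Ackr3 (formerly Cxcr7) is an atypical receptor that binds Cxcl12, recruits arrestins and removes the ligand. Loss of any of these genes is known to disturb the streams in which MGE-derived interneurons travel.

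The 3 genes differed in where CTCF peaks lay at the gene itself. At Ackr3 a peak covered the transcription start site in both lists. Cxcr4 had a peak just upstream of its start in the telencephalon list, and in the MGE list the nearest peak was 219 kb away. Cxcl12 had no peak at its start, but a peak upstream and a peak inside the gene were found in both lists. Counting peaks within 1 kb of either annotated end, 1 of the 3 genes had a gene-end peak in the MGE list, where 12.1% of all protein-coding genes had, and 2 of the 3 in the telencephalon list, where 19.3% had. With the wider 50% of peaks the MGE count was 0, since the Ackr3 peak dropped out, against 8.55% of all protein-coding genes. With gene ends of 5 kb it was 2, against 29.6% of all protein-coding genes. With the whole gene and 10 kb on either side, a peak was found for Ackr3 and Cxcl12 in the MGE list, where 51.3% of protein-coding genes had such a peak, and for all 3 genes in the telencephalon list, where 61.3% had. With 3 genes, these counts describe each gene and say nothing of a group.

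**Figure D1:**
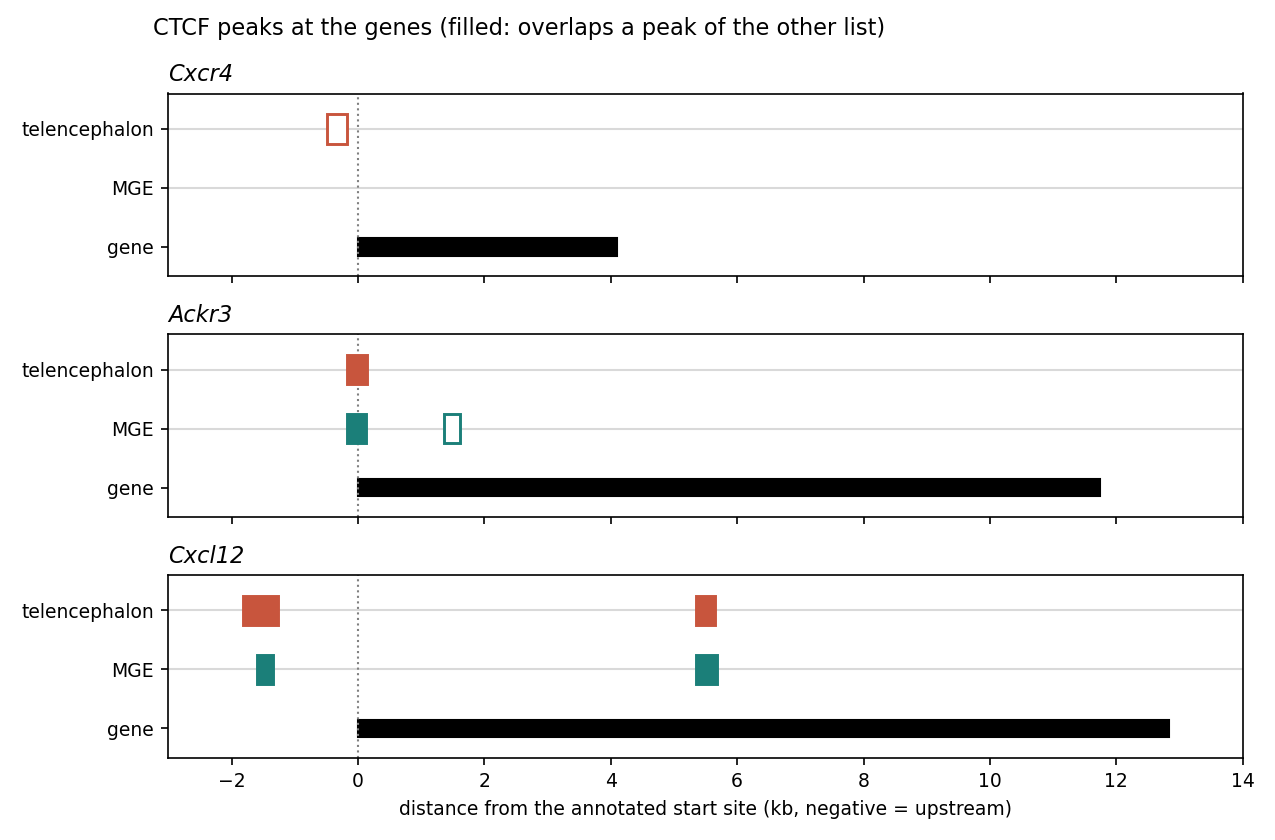
CTCF peaks at the 3 genes. The x axis is the distance from the annotated start site in kb along the direction of transcription, black bars are genes, and boxes are peaks drawn to scale, filled where they overlap a peak of the other list. The Ackr3 start site lies under a filled box in both lists, the open box upstream of Cxcr4 is in the telencephalon list, and the filled boxes of Cxcl12 lie upstream of the gene and inside it.

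Cxcl12, the ligand (gene ID 20315, chr6:117168535-117181368, forward strand, 12834 bp), had 5 MGE peaks and 3 telencephalon peaks in the gene and window. All 3 telencephalon peaks overlapped an MGE peak, so the lists held the same 3 positions there, and the MGE list held 2 more. The first shared position lay 87.2 kb upstream, at chr6:117080932-117081321 in the MGE list and chr6:117080816-117081330 in the telencephalon list, with widths of 390 and 515 bp. The MGE peak there lay wholly within its partner.

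The second shared position was the one nearest to the Cxcl12 start. It lay at chr6:117166933-117167186 in the MGE list (254 bp, 1348 bp upstream of the gene) and at chr6:117166721-117167266 in the telencephalon list (546 bp, 1268 bp upstream). The telencephalon peak stood at the 92.9th percentile of width in its list and the MGE peak at the 32.5th in its own. Because it lay beyond 1 kb, it was not counted as a gene-end peak; with gene ends of 5 kb, Cxcl12 gained 1 gene-end peak in each list. The third shared position was inside the gene, with both peaks beginning at chr6:117173883 and ending at 117174215 in the MGE list and 117174176 in the telencephalon list. Its midpoints lay 5514 and 5494.5 bp downstream of the start. Among protein-coding genes within 2-fold of the length of Cxcl12, 22.7% were overlapped by an MGE peak and 32.7% by a telencephalon peak.

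The MGE peaks of Cxcl12 without a partner lay 203624 bp upstream (chr6:116964591-116964910, 320 bp) and 67951 bp downstream (chr6:117249320-117249650, 331 bp). Neither was narrow: both were above the median width of their list, 300 bp, and the nearest telencephalon peaks were 115905 and 75143 bp away. Among MGE peaks within 10% of the width of the downstream peak, 72.6% had a telencephalon partner. Above the gene, the next telencephalon peak after the intragenic one began at chr6:117660634, outside the window. Together with the upstream peak, it left 493 kb around Cxcl12 with no other telencephalon peak than the intragenic one. No protein-coding gene lay within 300 kb of Cxcl12. The nearest on either side were Tmem72, 452 kb below, and Zfp637, 659 kb above.

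Ackr3, the scavenging receptor (gene ID 12778, chr1:90203980-90215724, forward strand, 11745 bp), had 10 MGE peaks and 11 telencephalon peaks in the gene and window, and 6 in each list were shared. The start-site peak ran over chr1:90203808-90204099 in the MGE list (292 bp) and chr1:90203812-90204120 in the telencephalon list (309 bp). The peaks had 288 bp in common, and their midpoints lay 26.5 and 14 bp upstream of the start site. A promoter window, taken as the 250 bases before and the 50 bases from a RefSeq start site, was overlapped in the MGE list for 5.23% of the 17492 protein-coding genes with such a window, in the telencephalon list for 9.17% and in both for 4.61%.

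The 250 bases upstream of the Ackr3 start site (chr1:90203730-90203979, forward strand, RefSeq sequence of GRCm38.p6) are shown because both lists place CTCF on them. Capitals mark the 168 bases that peaks of both lists covered.
Ackr3 upstream: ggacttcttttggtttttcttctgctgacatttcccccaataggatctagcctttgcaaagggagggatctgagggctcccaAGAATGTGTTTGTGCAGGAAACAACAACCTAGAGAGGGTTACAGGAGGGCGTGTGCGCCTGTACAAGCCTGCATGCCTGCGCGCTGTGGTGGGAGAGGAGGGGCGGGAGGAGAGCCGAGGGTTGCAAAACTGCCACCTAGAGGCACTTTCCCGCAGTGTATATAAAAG

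A core of the CTCF consensus, made of CC, 3 bases of any kind, AG, 2 bases of any kind and GGC, was sought on both strands of promoter windows, with no other motif sought. The Ackr3 window held this motif at chr1:90203943-90203954, 37 to 26 bases before the start site, on the strand opposite to the gene. The match is in capitals within 10 bases on either side, on the strand of the gene.
Ackr3 match: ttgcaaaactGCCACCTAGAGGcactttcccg

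On its own strand the match reads CCTCTAGGTGGC. Its centre lay 5 bp from the midpoint of the MGE peak and 17.5 bp from that of the telencephalon peak. The lists give no summits, so midpoints stand in for them. Over all 21263 promoter windows of protein-coding genes, 9.88% held the motif. A match is a description of the sequence and not evidence of a bound site.

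The other Ackr3 peaks lay at a distance. Inside the gene, 1486.5 bp after the start, the MGE list had a further peak (chr1:90205345-90205588) with no telencephalon partner. It was 244 bp wide, the narrowest width in the MGE list, which 28.9% of that list's peaks had. Of MGE peaks within 10% of that width, 27.8% had a partner. Upstream, shared positions lay 143, 152, 177 and 260 kb from the gene. The closest of them (chr1:90060567-90060943 in MGE, chr1:90060591-90060928 in telencephalon) and the next (chr1:90051427-90051790 and chr1:90051440-90051765) were inside Iqca, a gene of an IQ motif protein. At both, the telencephalon peak lay wholly within the MGE peak. Downstream, the only shared position lay 157 kb from the gene, inside the long non-coding RNA gene Gm34992, with an MGE peak of 313 bp and a telencephalon peak of 165 bp. Of telencephalon peaks within 10% of that narrow width, 9.08% had an MGE partner. With the telencephalon list cut to 25625 peaks, the narrowest 190 bp, this position was not shared, and Ackr3 had 5 shared peaks in each list.

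Between the closest upstream and the downstream shared positions, 312 kb around Ackr3 held the start-site peak as the only shared position. That stretch also held the 244 bp MGE peak and a 159 bp telencephalon peak 56879 bp downstream (chr1:90272604-90272762). The last lay next to the start of the non-coding gene 2700003A03Rik, named here after its values were seen, and 8.57% of telencephalon peaks of such width had an MGE partner. The remaining unshared positions were 3 in the MGE list and 4 in the telencephalon list. Among the 4 protein-coding genes in the window, which include Gbx2, a homeobox gene of the midbrain-hindbrain boundary, and Asb18, none had a gene-end peak in either list. The nearest protein-coding neighbours were Iqca, 50.5 kb below, and Cops8, which encodes a subunit of the COP9 signalosome, 387 kb above.

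Cxcr4, the signalling receptor (gene ID 12767, chr1:128588199-128592299, reverse strand, 4101 bp), had 4 MGE peaks and 7 telencephalon peaks in the gene and window. All 4 MGE peaks were shared, as were 4 of the 7 telencephalon peaks, and no peak of either list overlapped the gene. Among protein-coding genes within 2-fold of the length of Cxcr4, 12.1% were overlapped by an MGE peak and 18.5% by a telencephalon peak. The gene-end peak of the telencephalon list (chr1:128592467-128592781) was 315 bp wide and began 167 bp upstream of the start site, with its midpoint 325 bp upstream. It stood at the 62.4th percentile of width in its list, and 62.2% of the 5515 telencephalon peaks within 10% of its width had an MGE partner. The nearest MGE peak was 223396 bp from it. A telencephalon gene-end peak without an MGE gene-end peak was found for 8.79% of protein-coding genes. The promoter window was overlapped in the telencephalon list alone for 4.56% of genes, and in the MGE list alone for 0.612%.

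The 250 bases upstream of the Cxcr4 start site (chr1:128592300-128592549, reverse strand, RefSeq sequence of GRCm38.p6) are shown to set beside Ackr3. Capitals mark the 83 bases that the telencephalon peak covered, at the end of the sequence farthest from the gene.
Cxcr4 upstream: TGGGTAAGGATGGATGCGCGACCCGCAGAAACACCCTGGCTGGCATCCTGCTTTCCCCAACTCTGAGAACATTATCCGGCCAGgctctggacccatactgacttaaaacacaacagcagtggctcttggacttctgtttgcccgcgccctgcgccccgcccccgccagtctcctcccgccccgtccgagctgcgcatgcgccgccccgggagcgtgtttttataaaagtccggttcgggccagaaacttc

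The CTCF core motif was not in the Cxcr4 window on either strand. The other 232 bases of the peak lie beyond the window and were not searched. The Cxcl12 window did not hold it either, and no peak of either list overlapped it. Cxcr4 and Cxcl12 had 20 CpG dinucleotides each in their 300-base windows and Ackr3 had 8, against a median of 13 over all windows. GC content was 59.3% for Cxcr4, 64.7% for Cxcl12 and 54.0% for Ackr3, with a median of 56.3%.

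Windows of all protein-coding genes gave the background for these matches. The motif was in 43.9% of the 861 windows overlapped in both lists (exact 95% Clopper-Pearson interval 40.6 to 47.3%), the class of Ackr3. It was in 23.1% of the 856 windows overlapped in the telencephalon list alone (20.3 to 26.1%), the class of Cxcr4. Windows overlapped in the MGE list alone held it in 19.3% of 119 cases (12.7 to 27.6%), and windows overlapped in neither, the class of Cxcl12, in 7.73% of 19427 cases (7.35 to 8.11%). More than 50% of windows of every class thus lacked it, as the Cxcr4 window did. The intervals cover counting error and treat windows as independent, although some genes have several.

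**Figure D2:**
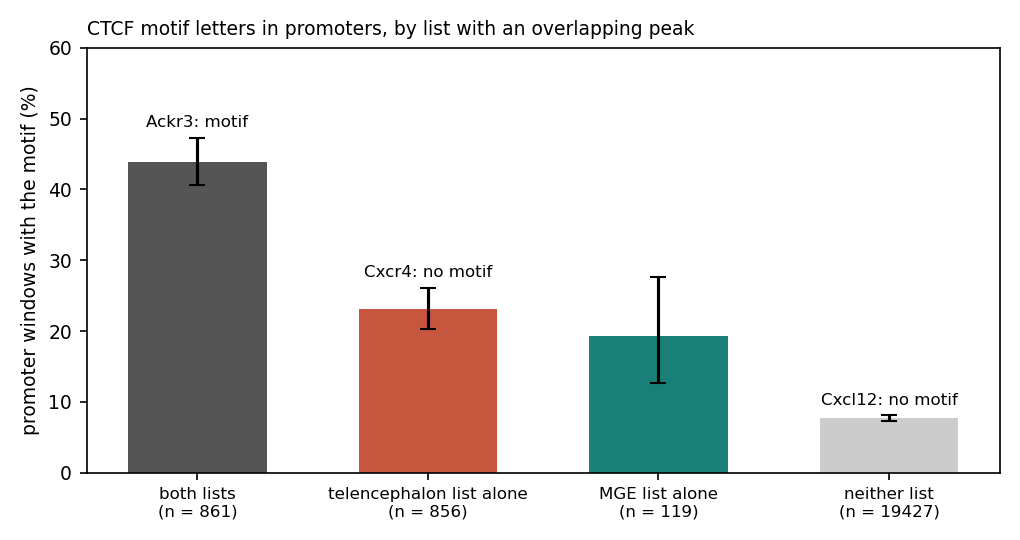
Share of promoter windows that held the CTCF core motif. The x axis gives the list or lists with an overlapping peak and the number of windows, the y axis the percent of windows, and error bars are exact 95% intervals. The bar of windows overlapped in both lists stands at 43.9% and that of neither at 7.73%, and the class of each gene is written above its bar with whether its window held the motif.

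The flanks of Cxcr4 held 4 shared positions, and the telencephalon list had further peaks there without a partner. Upstream, shared positions lay 232, 240 and 283 kb from the gene. The MGE peaks there were 400, 359 and 512 bp wide and the telencephalon peaks 382, 239 and 297 bp. The last MGE peak (chr1:128875224-128875735) stood at the 95.5th percentile of width, and its partner (chr1:128875276-128875572) lay wholly within it. Downstream, the only shared position was 219 kb away inside Dars, which encodes the cytoplasmic aspartyl-tRNA synthetase (chr1:128368815-128369070 in MGE and chr1:128368686-128369040 in telencephalon). These flanks enclosed 455 kb with no MGE peak, in which Cxcr4 was the only protein-coding gene that lay entirely inside. In the telencephalon list the same stretch held the gene-end peak, a 272 bp peak inside Dars (chr1:128372137-128372408) and a 162 bp peak 228 kb upstream (chr1:128820631-128820792), all without a partner. None of the 3 protein-coding genes in the window, Dars, Mcm6 (a subunit of the replicative helicase) and Lct (lactase), had a gene-end peak in either list. On the upstream side the nearest protein-coding gene was Thsd7b, 681 kb away.

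Within 300 kb, though not within 100 kb, the genes took a different order in the lists. In the MGE list Ackr3 had the most peaks, 10, followed by Cxcl12 with 5 and Cxcr4 with 4. In the telencephalon list Ackr3 again had the most, 11, followed by Cxcr4 with 7 and Cxcl12 with 3. Without replicates the spread of these counts is not known, so no step in the order can be set against it. Per Mb of window the MGE counts were 16.3 for Ackr3, 8.16 for Cxcl12 and 6.62 for Cxcr4, against 9.42 over the genome up to the last peak of each chromosome. The telencephalon counts were 18.0, 4.9 and 11.6 per Mb, against 11.7. With windows of 100 kb the order was the same in both lists, and Cxcl12 led. It had 4 MGE and 3 telencephalon peaks, Ackr3 had 2 in each list, and Cxcr4 had 0 and 1.

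Set among all protein-coding genes, none of the 3 genes lay at the upper extreme. The median number of peaks in a gene and its 300 kb windows was 8 in the MGE list and 12 in the telencephalon list. Ackr3 exceeded 59.8% of genes in the MGE list and 41.6% in the telencephalon list. Cxcr4 exceeded 12.8% and 23.5%, and Cxcl12 19.2% and 10.6%. The median number of shared MGE peaks was 6, which is the count of Ackr3, and Cxcr4 had 4 and Cxcl12 3.

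Distance to the nearest peak differed between the lists for Cxcr4. In the MGE list the nearest peak was 219128 bp away, and 746 of the 21887 protein-coding genes (3.41%) were farther from a peak. In the telencephalon list the distance was 167 bp, and 59.5% of genes were farther. Ackr3 and Cxcl12 were overlapped in both lists, a class that was not counted over all genes. Each list taken singly overlapped 31.4% of genes (MGE) and 39.1% (telencephalon). For genes within 2-fold of the length of Ackr3 these shares were 21.6% and 31.6%. A shared peak overlapped 24.6% of all protein-coding genes in the MGE list.

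**Figure D3:**
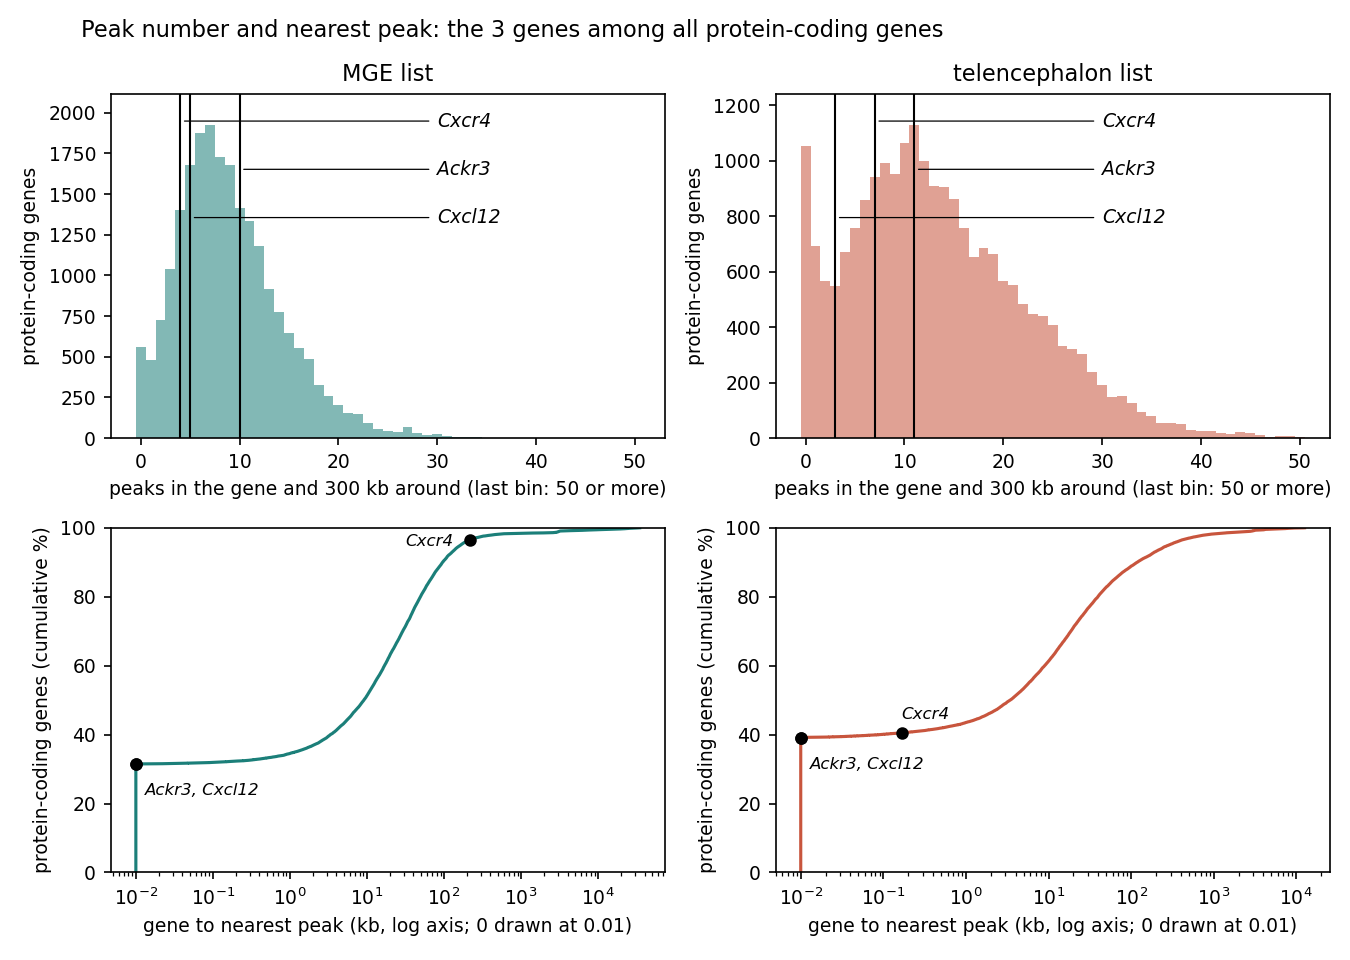
The 3 genes among all protein-coding genes, for the MGE list (left) and the telencephalon list (right). The upper row plots the number of genes against the number of peaks in the gene and 300 kb around, with lines at the 3 genes. The lower row plots the cumulative percent of genes against the distance to the nearest peak in kb on a log axis, with points at the 3 genes. Cxcr4 sits near the top of the MGE curve (219128 bp) and low on the telencephalon curve (167 bp).

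Sharing over the 3 windows was counted with each list as its own denominator. In the MGE list 13 of 19 peaks had a telencephalon partner (68.4%, interval 43.4 to 87.4%), against 58.4% of all MGE peaks. In the telencephalon list 13 of 21 had an MGE partner (61.9%, 38.4 to 81.9%), against 47.0%. Both intervals include the share of the whole list, but they treat peaks as independent. The 13 shared peaks of one list overlap the 13 of the other, so the shares are not separate observations. By gene, 4 of 4, 6 of 10 and 3 of 5 MGE peaks were shared at Cxcr4, Ackr3 and Cxcl12, and 4 of 7, 6 of 11 and 3 of 3 telencephalon peaks.

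Shared peaks in the windows were mostly wider than unshared ones. Their median width was 358 bp in the MGE list (254 to 512 bp) and 321 bp in the telencephalon list (165 to 546 bp). Unshared peaks had medians of 280.5 bp (244 to 331 bp) and 227 bp (152 to 315 bp). The ranges overlapped in each list. Over the whole lists, too, wider peaks more often had a partner. Of MGE peaks within 10% of 244 bp, 27.8% had one, and of those within 10% of 512 bp, 90.4%. For telencephalon peaks within 10% of 152 and 546 bp the shares were 7.82% and 81.8%. All 3 MGE peaks at the narrowest width of 244 bp were at Ackr3 and unshared. That width is common, held by 7399 of the 25625 MGE peaks (28.9%). The Cxcr4 gene-end peak was the widest unshared telencephalon peak of the windows.

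**Figure D4:**
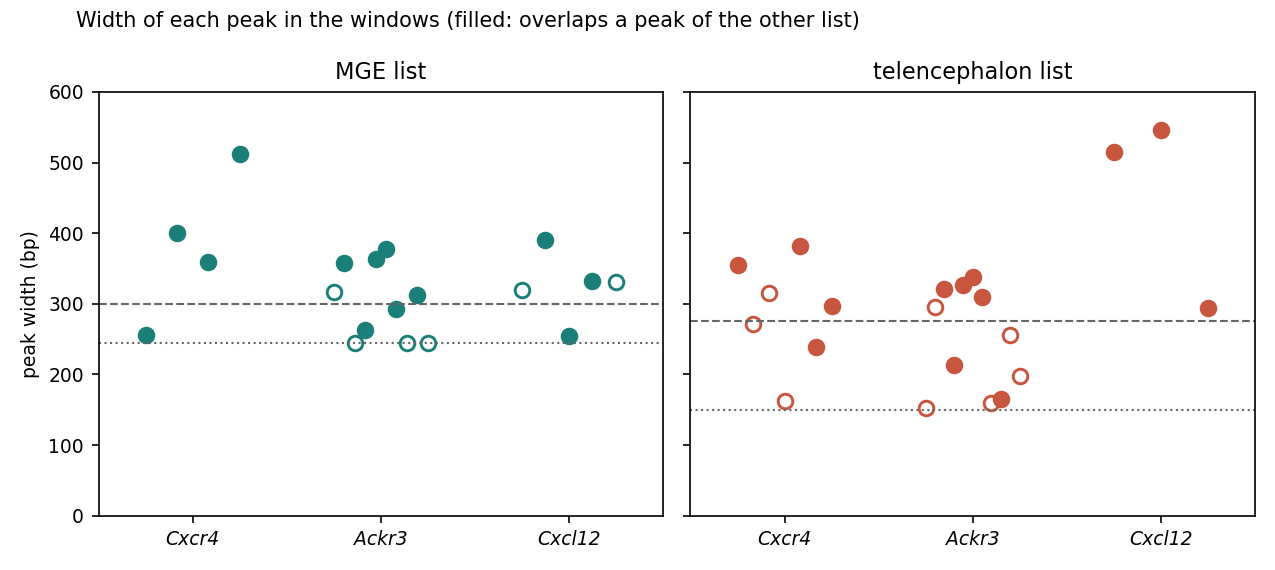
Width in bp (y axis) of each peak in the windows of the 3 genes (x axis), for the MGE list (left) and the telencephalon list (right). Filled points overlap a peak of the other list, the dashed line is the median width of the list (300 and 276 bp) and the dotted line its narrowest width (244 and 150 bp). Within a gene, points run from low to high coordinate.

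Genes that act with the chemokine receptors were counted from a list of 45 signalling partners, of which 44 were matched (Cxcl11 was not). In the MGE list 7 of 44 had a gene-end peak (15.9%, interval 6.64 to 30.1%), against 12.1% of all protein-coding genes. In the telencephalon list 17 of 44 had (38.6%, 24.4 to 54.5%), against 19.3%. With the wider 50% of peaks the telencephalon count was 9 of 44 (20.5%), against 12.0% of all genes under that setting. The median number of peaks in the gene and 300 kb around was 10 in the MGE list and 17 in the telencephalon list, against 8 and 12 for all genes. The lists of genes were chosen with earlier results of these data known, and no test was made.

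Both lists had a gene-end peak at 6 of the 44 partners, Adm, Akt1, Grk2, Grk5, Mapk3 and Pxn, a class that held 10.5% of all protein-coding genes. Grk2 and Grk5 encode kinases that phosphorylate activated receptors and so prepare them for arrestin. The Grk2 peaks lay at chr19:4306178-4306583 in the MGE list and chr19:4306317-4306623 in the telencephalon list. The Grk5 peaks lay at chr19:60889489-60889941 and chr19:60889519-60890204, and both overlapped its promoter window. Adm encodes adrenomedullin, a peptide that Ackr3 also binds. It had a shared peak near 1 end (chr7:110630084-110630553 and chr7:110630199-110630646), and its promoter window was overlapped by a further peak in the telencephalon list alone (chr7:110627089-110627570). Akt1 and Mapk3 encode kinases downstream of Cxcr4, and Pxn encodes paxillin of focal adhesions.

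Gnai1, which encodes an inhibitory G protein alpha subunit of the kind that Cxcr4 signals through, was the only partner whose gene-end peak was found in the MGE list alone. That peak (chr5:18360090-18360587, 498 bp) stood at the 94.7th percentile of width. A gene-end peak in the MGE list alone was found for 1.58% of protein-coding genes. Partners with one in the telencephalon list alone numbered 11 of 44, against 8.79% of all protein-coding genes: Arrb2, Crk, Dock2, Elmo1, Gnai2, Gnai3, Gng2, Hmgb1, Plcb1, Rac1 and Ramp2. Arrb2 encodes a beta-arrestin, the adaptor that Ackr3 recruits, and its peak (chr11:70431971-70432267) had no MGE partner. Gnai2 had the widest of these peaks (chr9:107612695-107613690, 996 bp), which did overlap an MGE peak that lay outside the 1 kb reach. Rac1, the exchange factor Dock2 and the Dock partner Elmo1 act on the actin cytoskeleton of migrating cells. Their peaks were 324, 227 and 248 bp wide and unshared.

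A peak of at least 1 list overlapped a promoter window of 9 of the 54 genes with such a window in this list and the chemokine lists described next (16.7%), against 9.78% of all protein-coding genes. Of the 9, 2 held the CTCF core motif in an overlapped window, and 32.6% of all overlapped windows held it. These are shown beside the Ackr3 match, in capitals within 10 bases on either side and on the strand of each gene. The Plcb3 match (chr19:6969886-6969897) is in a window overlapped in both lists, and the Hmgb1 match (chr5:149053057-149053068) in a window overlapped in the telencephalon list alone.
Plcb3 match: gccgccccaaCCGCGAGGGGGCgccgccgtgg
Hmgb1 match: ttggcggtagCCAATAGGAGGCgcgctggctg

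Both lay on the strand of their gene, whereas the Ackr3 match lay on the opposite strand. Plcb3 encodes a phospholipase C that G protein subunits activate, and Hmgb1 encodes a nuclear protein that can form a complex with Cxcl12. The overlapped windows of the other 7 genes, among them Adm, Gnai1 and Grk5, did not hold it.

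Of 21 genes of other chemokine receptors, 1 had a gene-end peak in each list, and it was the same gene, Ccr10 (chr11:101173659-101174326 in MGE and chr11:101173843-101174411 in telencephalon). The share of 4.76% (interval 0.12 to 23.8%) lay below the 12.1% and 19.3% of all genes, and the interval includes both. With gene ends of 500 bp the MGE count was 0, against 8.69% of all genes. With 5 kb the counts of 21 were 4 (MGE) and 7 (telencephalon), against 29.6% and 40.9% of all genes. Ackr3 and Cxcr4 are not in this list. Among the other atypical receptors, Ackr1 had 2 peaks within 10 kb in each list, Ackr4 had 2 in the MGE list and 0 in the telencephalon list, and Ackr2 had none. Cxcr3, whose ligands include a chemokine that Ackr3 also binds, had its nearest MGE peak 220183 bp away and its nearest telencephalon peak 37972 bp away.

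Of 13 further CXC and CX3C ligand genes, 12 were matched. None had a gene-end peak in the MGE list (0 of 12, interval up to 26.5%) and 1, Cxcl17, had a 157 bp peak in the telencephalon list (1 of 12, interval 0.211 to 38.5%). The intervals include the 12.1% and 19.3% of all protein-coding genes. The nearest peaks of Cxcl14, a CXC chemokine, lay at 8893 bp (MGE) and 7966 bp (telencephalon). Genes of some chemokine clusters lie side by side and can have the same peaks in their windows, whereas the intervals treat genes as independent.

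The genes most like each of the 3 were sought by 5 counts: peaks of each list within 10 kb and within 300 kb, and shared MGE peaks within 300 kb. Likeness was the Euclidean distance over these counts among protein-coding genes of a length within 2-fold, more than 1 Mb away. For Cxcr4, 2 of 4388 candidates, Ccno and Mcidas, were identical in all 5 counts, and they are neighbours on chromosome 13 with overlapping windows. Another 7 genes tied at a distance of 1, of which Lrrc4, Rtp1 and Gm52217 were nearest to Cxcr4 in length. For Ackr3, Pofut2 and Pbld1 were at a distance of 1, and Klhl41, Dhrs7 and Fam111a were the nearest in length of 13 genes tied at 1.41. For Cxcl12, Rfc3 and Gm11837 were at 1, Shh, the ventral morphogen gene, at 1.41, and Bambi and Crbn at 1.73. The counts come from 2 libraries, and likeness in them says nothing of function.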

How the data were processed

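The authors' deposited lists hold 25710 CTCF peaks for MGE and 31979 for telencephalon, each with a chromosome, start and end and no score. Input libraries were not analysed here. Per the submitters' processing notes, Bowtie2 2.3.2, MACS2 2.1.1.20160309 and build mm10 were used. For the threshold, the control and any filter, no value is given in the sources used here. Per the file headers the tracks are named p001 (telencephalon) and p01 (MGE), so the thresholds may differ. Per the labels' protocols the library kit differed by tissue. Peaks off chromosomes 1 to 19, X and Y (85 and 93) were set aside.

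Partners overlap by at least 1 bp, and distances count the bases between features. Gene positions came from the RefSeq table, and strand, start sites and sequence from the RefSeq promoter table, both for GRCm38.p6. The tables give no exons, so exons, introns and UTRs are not separated. Sequence outside promoter windows was not searched. Intervals are exact 95% Clopper-Pearson intervals (scipy 1.17.1). Interval counting was tested on simulated data.

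Named were the 3 genes, protein-coding genes within 300 kb with a gene-end peak, the nearest protein-coding gene on each side, listed genes with a gene-end peak, and the 5 genes most like each of the 3. Other listed or neighbouring genes were named after their values were seen. The 3 genes and the 3 gene lists were chosen with earlier results of these data known. Alternatives changed the overlap, window, reach of a gene end and width of peaks.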

Additional observations from a re-analysis of the deposited data

How the results depend on the processing

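Of 142 alternative counts, 105 stayed within 1.5 times the reported count and 37 did not. All 12 under other overlap rules (50% of both peaks, or partners within 500 bp), all 26 with the telencephalon list cut to 25625 peaks and all 26 without peaks of the narrowest width stayed within it. Small counts could still change inside that margin. With 50% of both peaks overlapping, shared Cxcl12 peaks fell from 3 to 2 in each list. Ackr3 MGE peaks fell from 10 to 7 without the narrowest width, and its telencephalon peaks from 11 to 8 in the cut list.

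With windows of 100 kb, Cxcr4 had 0 MGE peaks and 1 telencephalon peak, 0 shared in either list, and Ackr3 had 2 peaks in each list, 1 shared in each. Cxcl12 then had the most peaks in both lists, 4 MGE and 3 telencephalon, with 3 shared in each. With 500 kb, Ackr3 had 16 MGE and 23 telencephalon peaks, 11 shared in each, and Cxcl12 had 8 and 7, with 5 shared in each.

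With the wider 50% of each list, Cxcr4 had 4 telencephalon peaks and 2 shared in each list. Ackr3 had 5 in each list and 3 shared in each, and its MGE start-site peak dropped out, leaving 0 gene-end peaks and 0 of the 3 genes with one in that list. That peak, 292 bp, is narrower than the 300 bp at which the wider 50% begins. Telencephalon counts were 9 signalling partners and 2622 protein-coding genes.

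With gene ends of 5 kb, Ackr3 had 2 MGE gene-end peaks, Cxcl12 had 1 in each list, and 2 of the 3 genes had one in the MGE list. Signalling partners with one numbered 14 in the MGE list, other receptors 4 (MGE) and 7 (telencephalon), and protein-coding genes 6477 (MGE) and 8954 (telencephalon). With 500 bp, 0 of 21 other receptors had one in the MGE list, against 8.69% of all protein-coding genes.

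No paired analysis was possible because each tissue has 1 CTCF library. Replicates, depth and summits are lacking, so a peak missing from a list cannot be told apart from one below its calling limit.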

Other observations

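Some unshared peaks lay close to a peak of the other list without touching it. Upstream of Ackr3, between its shared position 260 kb away and Gbx2, an MGE peak (chr1:89939240-89939556, 317 bp) and a telencephalon peak (chr1:89940440-89940734, 295 bp) were 883 bp apart. Inside Ackr3 the MGE peak of 244 bp lay 1224 bp beyond the end of the telencephalon start-site peak. At Cxcr4, the unshared telencephalon peaks of the flanks lay 3066 bp (inside Dars) and 3435 bp (upstream) from a shared MGE peak, whereas the gene-end peak lay 223396 bp from any.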
